A study of Mus musculus with 288 samples.

Results

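Among single club cells of the mouse lung, some held transcripts of Retnla and others held none, and the 2 kinds of cells are compared here gene by gene. Club cells were selected on their own measured counts: a well was taken when its total was above 2340 counts, Scgb1a1 gave at least 10% of the total, and Scgb3a1 and Sftpc each gave less than 1%. Of 286 sorted wells, 227 passed the limit on the total and 84 of these passed the limits on the 3 genes. The Retnla-positive side was the 43 club wells with at least 5 Retnla counts, and the Retnla-negative side was the 18 club wells with 0. The other 23 club wells held 1 to 4 counts and belonged to neither side. Both sides together held 61 of the 286 sorted wells.

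The cells came from lungs of C57BL/6 mice aged 4 months with the genotype Scgb1a1-CreER;Rosa26-mTmG, which both sides share. In these mice a recombinase driven by the Scgb1a1 promoter marks a lineage through a fluorescent reporter, so a cell enters the lineage only if that promoter was active when recombination was induced. The sort took cells positive for that lineage and low in CD24, and 2 wells served as negative controls. The labels tie no cell to an animal, so all wells were treated as parts of 1 sample. There is no replicate of either side, and no p-value was made from cells. Intervals are 95% intervals for counting error only.

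Club cells are secretory cells of the conducting airways that release secretoglobins and carry enzymes that metabolise inhaled compounds. Retnla encodes resistin-like molecule alpha (RELM-alpha, also called FIZZ1), a small secreted cysteine-rich protein. Its gene is a known target of the type 2 cytokines interleukin 4 and interleukin 13 through the transcription factor STAT6, in airway epithelium and in alternatively activated macrophages. C/EBP factors are known to act at its promoter as well.

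Retnla lies on the plus strand of chromosome 16 at 48842551 to 48844461 (GRCm38, the assembly of mm10). Its promoter is printed because that gene divides the wells, and the promoter of Sftpa1 because that gene was higher with Retnla both in club wells and in wells outside the club gate. Of the 2 genes that were, Sftpa1 and Ccdc36, 1 matched the RefSeq table by symbol. Each runs from 250 bases before to 50 bases after the RefSeq start site (GRCm38.p6, plus strand, chr16:48842359-48842658 and chr14:41131538-41131837). Capitals mark matches, on either strand, to 3 motifs: the STAT6 motif (TTC and GAA with 4 bases between), the C/EBP motif TTNNGNAA, and TATAAA.
Retnla promoter: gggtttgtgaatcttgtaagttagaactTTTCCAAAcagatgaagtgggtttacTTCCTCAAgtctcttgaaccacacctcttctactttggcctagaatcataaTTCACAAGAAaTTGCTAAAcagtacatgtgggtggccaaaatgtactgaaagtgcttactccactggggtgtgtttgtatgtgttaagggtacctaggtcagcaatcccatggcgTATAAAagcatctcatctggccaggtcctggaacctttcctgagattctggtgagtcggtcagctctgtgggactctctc
Sftpa1 promoter: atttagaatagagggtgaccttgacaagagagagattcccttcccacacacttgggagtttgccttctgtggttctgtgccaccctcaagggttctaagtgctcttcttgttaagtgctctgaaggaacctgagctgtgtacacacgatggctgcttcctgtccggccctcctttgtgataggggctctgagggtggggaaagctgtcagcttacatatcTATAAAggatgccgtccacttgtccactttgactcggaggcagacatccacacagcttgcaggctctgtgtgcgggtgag
The Retnla window held 1 STAT6 motif 145 bases before the start site, 3 C/EBP motifs 222, 196 and 134 bases before it, and TATAAA 30 bases before it. None of these matches overlap. In the Sftpa1 window the search found TATAAA 30 bases before the start and neither of the other motifs. Of 32851 RefSeq promoters of the same length, 6.95% held the STAT6 motif, 40.7% the C/EBP motif and 13.6% TATAAA. A match describes letters only and does not show that a factor was bound.

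Retnla counts in the positive wells ran from 5 to 44 with a median of 11. As counts per 1000000 counts of the well (CPM), the lowest positive well had 675, the median 1840 and the highest 7298. Just inside the limit stood 2 wells with 5 counts, and just outside it 3 wells with 4 counts. Pooled over all counts of a side (the summed count of the gene over the summed total), Retnla reached 2344 CPM (2162 to 2537) in positive wells and 397 CPM (297 to 521) in the wells with 1 to 4 counts. In negative wells the 0 counts allow at most 33.3 CPM over the side, but a single negative well could have held between 384 and 1083 CPM unseen, so a low level of Retnla in a negative well was not detectable at this depth. These values chose the sides and are a description.

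**Figure D1:**
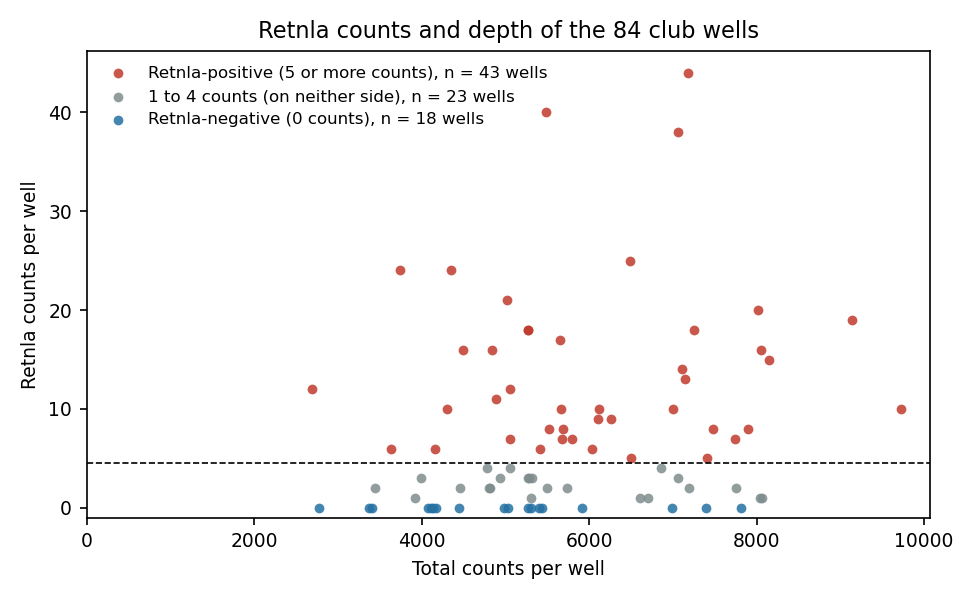
Retnla counts of each of the 84 club wells (vertical axis) against the total counts of the well (horizontal axis), coloured by side, with a dashed line between 4 and 5 counts. Positive wells reach 44 counts, and the totals of the 3 kinds of wells overlap.

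Depth was somewhat greater on the positive side. Totals ran from 2686 to 9718 (median 5796) in positive wells and from 2771 to 7816 (median 5008) in negative wells, and the sides summed to 261496 and 90003 counts. The median number of detected genes was 1566 and 1449.5. Of the genes used by the rule, Scgb1a1, the club cell secretoglobin, gave a median of 31.6% of the counts of positive wells and 32.0% of those of negative wells. Scgb3a1, a secretoglobin of larger airways, gave 55 counts in positive and 4 in negative wells (210 and 44.4 CPM), and Sftpc, a surfactant gene of the alveolar type 2 cell, gave 210 and 311 CPM. Of the 28 Sftpc counts in negative wells 18 came from 1 well, and without the top well of each side Sftpc stood at 170 and 116 CPM, the other way round. The ribosomal RNA gene Rn45s gave a median of 8.54% and 8.47%. Neither control well held a Retnla count. By successive sets of 96 columns of the deposited table, the positive wells fell 18, 20 and 5, and the negative wells 6, 6 and 6; no label says what such a set is. In the plot of Retnla counts against total counts, 6 positive wells had totals above the highest negative well and 1 below the lowest.

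The defining club cell markers were abundant on both sides. Cyp2f2, the club cell cytochrome that activates naphthalene, was pooled at 20696 CPM in positive and 21433 CPM in negative wells and had counts in all 61. Cbr2, a carbonyl reductase, stood at 27920 and 32132 CPM, and Aldh1a1, a retinaldehyde dehydrogenase, at 3048 and 2689 CPM. Of the 7 defining markers, all were measured and 1, Scgb3a2, was higher in positive wells; the others passed in neither direction.

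Across genes, a gene counted as measured when both sides together held at least 20 counts. It was called higher or lower when its ratio of pooled CPM was at least 2-fold and the interval of that ratio left out 1, which is a rule of size and counting error and not a test across animals. Of 1632 measured genes, 23 were higher in Retnla-positive wells (1.41%) and 53 were lower (3.25%). The split turns on the scaling: with TMM factors, which add 0.31 to every log2 ratio, 66 genes were higher and 21 lower. The median log2 ratio of all measured genes was -0.12 (0.19 with TMM), and each ratio is best read against that value. Without the well holding most counts of the gene, 20 of the 23 higher and 34 of the 53 lower genes were still past 2-fold. Of the 15 higher and 15 lower genes ranked by their intervals, 2 (Lypd2 and Lcn2) and 5 (Cdkn1a, Sec13, Clic5, Rai14 and Copg1) stayed past 2-fold in every alternative that gave them a value.

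The 15 higher and 15 lower genes ranked first by the interval bound nearest to no difference are plotted with their intervals, after leaving out genes carried by 1 well. Scgb3a2, Sftpa1, Lypd2, Cxcl17 and Chad each held more than 50 counts over both sides, and the other 10 higher genes held at most 37. The 15 lower genes held between 20 and 71 counts over both sides.

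**Figure D2:**
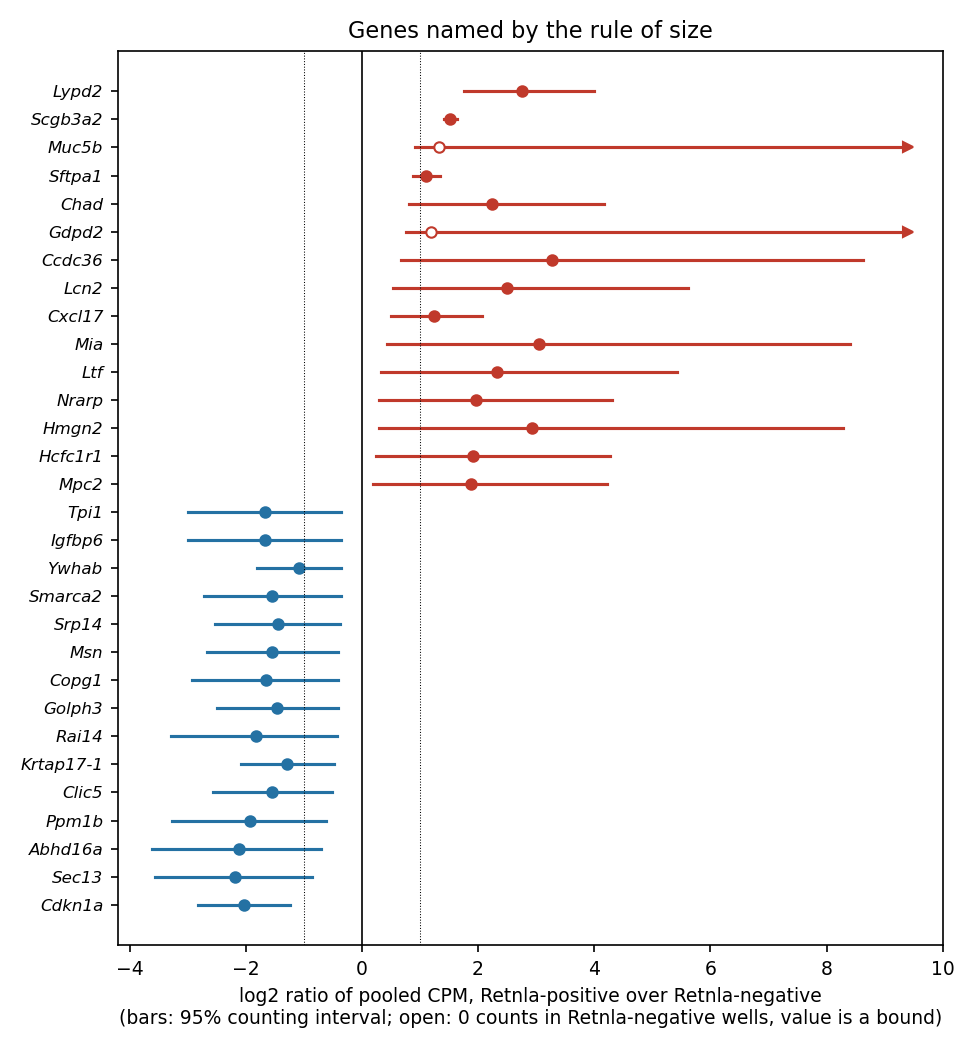
Log2 ratio of pooled CPM, Retnla-positive over Retnla-negative (horizontal axis), for the 15 higher (red) and 15 lower (blue) genes; bars are 95% counting intervals, open circles are lower bounds for genes with 0 counts in negative wells, and dotted lines mark 2-fold. Lypd2 and Scgb3a2 have the bounds farthest from 0 among the higher genes, and Cdkn1a among the lower.

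Among the secretory products, Scgb3a2, a secretoglobin of the distal airways, was called higher. Its level in single positive wells ran from 819 CPM through a median of 20431 to 58234 CPM, and in negative wells from 189 through 6148 to 30993 CPM. The sides overlap, but 14 of the 43 positive wells lay above the highest negative well. Pooled, the levels were 24467 and 8533 CPM, a log2 ratio of 1.52 (1.41 to 1.63). The wells with 1 to 4 Retnla counts, which the rule did not use, lay between them at 16060 CPM. The difference rested mostly on the first set of 96 columns: the log2 ratio was 3.05 there, 0.82 in the second, 0.71 in the third and 0.96 without the first, which is below 2-fold.

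Lypd2 (chromosome 15, 74732247 to 74734329, minus strand), a member of the Ly6/PLAUR domain family, ranked first among the higher genes by its interval. It had a count in 31 of 43 positive wells and in 6 of 18 negative wells. Levels in positive wells ran from 0 through a median of 429 to 2003 CPM, and in negative wells from 0 through 0 to 384 CPM, with 24 positive wells above every negative one. Pooled, Lypd2 gave 158 and 8 counts (604 and 88.9 CPM), which is 6.80-fold (3.37 to 16.0). The log2 ratio was 2.60, 2.51 and 1.64 in the 3 sets, the second against the floor of 3 counts because its negative wells held 0. At an equal depth of 4016 counts a Lypd2 count was found in 29 of 40 positive wells (72.5%) and 6 of 15 negative wells (40.0%). Wells with 1 to 4 Retnla counts stood at 497 CPM, near the positive side.

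Chad (chromosome 11, 94565047 to 94569127, plus strand) encodes chondroadherin, a leucine-rich repeat protein of the extracellular matrix. It was found in 28 of 43 positive and 3 of 18 negative wells, with 55 and 4 counts (210 and 44.4 CPM), and the wells between stood at 122 CPM. Single wells ran from 0 through 166 to 1328 CPM on the positive side and from 0 through 0 to 296 CPM on the negative side. The log2 ratio of 2.24 (0.80 to 4.17) fell to 0.36 within the third set alone.

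Sftpa1 (chromosome 14, 41131782 to 41136452, plus strand), surfactant protein A, is a collectin that binds microbes and is made by alveolar type 2 cells and by club cells. Positive wells ran from 0 through a median of 4232 to 14627 CPM, and negative wells from 0 through 1747 to 7276 CPM. The sides overlap widely, with 6 positive wells above the highest negative one. Pooled levels were 4436 and 2055 CPM, a log2 ratio of 1.11 (0.88 to 1.34), and the wells with 1 to 4 Retnla counts reached 4508 CPM. It was 1.17, 0.81 and 1.43 in the 3 sets, and 0.67 among wells with totals above the median, so the 2-fold limit was passed by little. Of other type 2 cell genes, Sftpb, another surfactant protein, stood at 6069 and 5322 CPM (log2 ratio 0.19, 0.04 to 0.34), and of 7 measured type 2 markers Sftpa1 was the single one called.

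**Figure D3:**
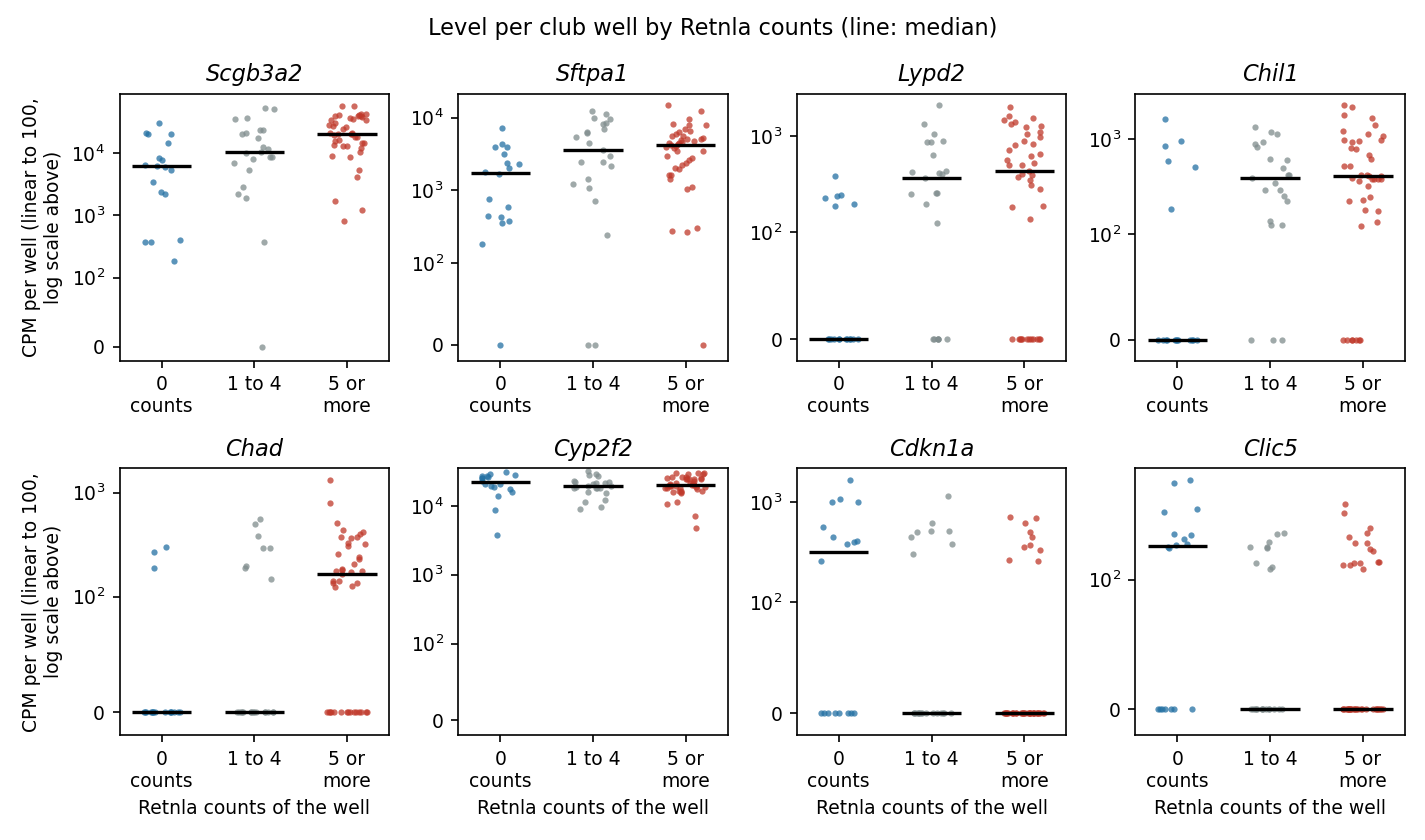
CPM per club well (vertical axis, linear to 100 and logarithmic above) for 8 genes, in wells with 0, 1 to 4, and 5 or more Retnla counts; each point is a well and the line is the median. The medians of Scgb3a2, Sftpa1, Lypd2, Chil1 and Chad are higher, and those of Cdkn1a and Clic5 lower, in wells with 5 or more counts than in wells with 0, with overlap of single wells in all 8.

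Of the lists with at least 4 measured genes, secreted antimicrobial products held the largest share of higher genes. Of its 23 genes 6 were measured, and 4 of them were higher and 0 lower, against 1.41% and 3.25% of all measured genes. The median log2 ratio was 1.10. The 4 were Sftpa1, Ltf, Lcn2 and Pigr. Ltf, the iron-binding lactoferrin, had 29 and 2 counts (111 and 22.2 CPM, log2 ratio 2.32, 0.34 to 5.43) and was found in 17 of 43 and 2 of 18 wells; it was 0.18 in the second set alone. Lcn2, the siderophore-binding lipocalin 2, had 33 and 2 counts (2.51, 0.54 to 5.61), of which 13 came from 1 positive well. Pigr, the receptor that carries polymeric immunoglobulin across epithelium, had 68 and 11 counts (1.09, 0.16 to 2.16) and was 0.91 without its top well. The members outside the call were Wfdc2 (8654 and 6511 CPM) and Sftpd, surfactant protein D (2294 and 1756 CPM). With 2 negative counts each for Ltf and Lcn2, the upper ends of their intervals are wide. The list's median was 0.37 in the first set alone and 0.81 and 1.26 in the others.

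Cxcl17, a mucosal chemokine, was the single higher gene among 4 measured genes of the chemokine and complement list, whose median was 0.74. It had 117 and 17 counts (447 and 189 CPM, log2 ratio 1.24, 0.50 to 2.07), in 30 of 43 and 8 of 18 wells, and the wells between stood at 329 CPM. Single positive wells ran from 0 through 332 to 1977 CPM and negative wells from 0 through 0 to 677 CPM, so that 13 positive wells exceeded every negative one. Among wells with totals above the median the log2 ratio was 0.33. The other 3 were Cd55, a complement regulator (0.81, -0.23 to 2.03), complement C3 (0.66, 0.01 to 1.36), and Cxcl15, lungkine (0.11, -0.18 to 0.40).

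A mucin, an immune receptor and an iron carrier were also higher. Muc5b, the gel-forming mucin of airway secretory cells, had 22 counts in 8 positive wells and 0 in negative wells. In the wells between it stood at 168 CPM. Against the floor of 3 counts it was 2.52-fold higher in positive wells. The lower end of its interval was a log2 ratio of 0.91, below 2-fold. Its ratio against the floor fell below 2-fold in 7 of 16 alternatives, the lowest at a log2 ratio of 0.71 without the first set. It was the 1 measured goblet marker of 10. The goblet list summed to 145 CPM in positive and 66.7 CPM in negative wells (at most 1489 and 286 CPM in a single well). In the wells with 1 to 4 Retnla counts the list summed to 497 CPM, above both sides, with at most 6260 CPM in a single well. Muc5b alone, at 168 CPM there, exceeded the whole list in positive wells. Cd14, the co-receptor for lipopolysaccharide, had 42 and 5 counts (1.53, 0.20 to 3.23) in 20 and 4 wells. It was the 1 measured gene of 19 macrophage and other leukocyte markers, of which 16, among them Ptprc (CD45), Mrc1 and Adgre1, had 0 counts on both sides; the list summed to 168 CPM in positive and 77.8 CPM in negative wells (at most 1378 and 379 CPM in a single well). The part of goblet transcripts in the other differences was not tested. Trf, the iron carrier transferrin, had 471 and 79 counts (1801 and 878 CPM, 1.04, 0.69 to 1.40) and is named after its values were seen. Without its top well Trf was no longer past 2-fold.

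The other ranked higher genes were sparse. Gdpd2, a glycerophosphodiester phosphodiesterase, had 20 and 0 counts, with a count in 15 positive wells. Against the floor of 3 counts it was 2.29-fold higher, and the lower end of its interval was a log2 ratio of 0.76, below 2-fold. Its ratio against the floor fell below 2-fold in 6 of 16 alternatives. Nrarp, a feedback inhibitor of Notch signalling, had 34 and 3 counts (1.96, 0.29 to 4.31), and its log2 ratio was -0.26 without the second set. It was the 1 of 4 measured Notch genes to be called, and Hes1, a Notch target, stood at -0.06. Mia, Hmgn2, Hcfc1r1 and Mpc2 had 22 to 33 counts in positive wells and 1 to 3 in negative wells, with log2 ratios from 1.88 to 3.05. None of these 4 kept 2-fold throughout: Mia stood at 0.18 and Mpc2 at 0.27 in the second set alone, Hmgn2 at 0.36 in the third alone, and Hcfc1r1 at 0.16 in wells with totals above the median. Ccdc36 had 28 and 1 counts, found in 4 positive wells, and stood at 0.22 without the second set.

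The rest of the RELM family and the type 2 list gave little signal. Retnlg had 7 and 1 counts, and Retnlb and Retn had 0 in every club well. Of the 22 genes of the list 2 were measured and 0 were called. Stat6 itself stood at 88.0 and 88.9 CPM (log2 ratio -0.02, -1.23 to 1.36). Il4ra, the interleukin 4 receptor chain, had 1 and 0 counts and Il13ra1 had 9 and 6, too few for a comparison.

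Chil1, a chitinase-like protein also known as BRP-39, was the other measured gene of that list and fell short of the 2-fold limit. Its levels ran from 0 through a median of 409 to 2298 CPM in positive wells and from 0 through 0 to 1663 CPM in negative wells. A count was found in 36 of 43 positive wells (83.7%) but in 6 of 18 negative wells (33.3%), and at equal depth in 32 of 40 (80.0%) and 5 of 15 (33.3%). Pooled levels were 593 and 322 CPM, which is 1.84-fold (1.23 to 2.84), and 1 negative well alone held 13 of the 29 negative counts. The log2 ratio was past 2-fold in 9 of 20 alternatives and ranged from -0.50, among wells with totals above the median with 4 negative wells, to 1.62 without the well of highest total on each side.

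Among the lower genes Cdkn1a (chromosome 17, 29090976 to 29100727, plus strand), the cell cycle inhibitor p21, stood out. Positive wells ran from 0 through 0 to 707 CPM and negative wells from 0 through a median of 318 to 1679 CPM. It was found in 10 of 43 positive and 10 of 18 negative wells, with 25 and 35 counts (95.6 and 389 CPM). That is 4.07-fold lower in positive wells (2.37 to 7.09), with log2 ratios of -3.54, -1.32 and -1.06 in the 3 sets. The wells with 1 to 4 Retnla counts stood between at 183 CPM. At equal depth the shares of wells were 20.0% and 60.0%.

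Alveolar type 1 cells are the thin gas-exchange cells, and part of their markers was lower. Of 10 markers 4 were measured, 2 were lower and 0 higher, against 3.25% lower over all measured genes. The median log2 ratio was -1.07, and the list summed to 486 CPM in positive and 1011 CPM in negative wells. Its sum in single wells ran from 0 through 372 to 2070 CPM and from 0 through 971 to 2783 CPM, with overlap. Clic5, an intracellular chloride channel protein, had 18 counts on each side (68.8 and 200.0 CPM, -1.54, -2.57 to -0.51), in 16 of 43 and 11 of 18 wells, and stayed past 2-fold in all 20 alternatives that gave it a value. Ager, the receptor for advanced glycation end products, had 23 and 20 counts (-1.34, -2.27 to -0.40). Ager fell below 2-fold without its top well (-0.91) and in the first set alone (-0.68). It was -0.12 among wells with totals above the median, a setting that leaves 4 negative wells. Aqp5, a water channel, stood at -0.80 and Hopx, a homeodomain protein, at -0.68, and neither was called.

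Genes of the transitional epithelium list, which mark stressed or remodelling lung epithelium, had a median below that of all genes. Of 14 measured, 2 were lower and 0 higher, against 3.25% lower over all measured genes, and the median was -0.59. A ratio above 1 was held by 2 of 14, against 41.8% of all measured genes. Krt7, a simple epithelial keratin, was at -1.02 (-1.83 to -0.18). It stayed past 2-fold in 9 of 20 alternatives, fell below 2-fold without its top well, and was 0.16 in the third set alone. S100a6, a calcium-binding protein, was at -2.28 but at -0.36 without the 1 negative well that held 15 of its 20 negative counts. The more abundant keratins Krt8 (-0.21) and Krt18 (-0.11) were not called.

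Among immediate early genes 17 were measured and 2 were lower: Dusp1, a phosphatase of MAP kinases (-1.04, -1.83 to -0.22), and Cyr61, a matricellular growth regulator (-1.37, -2.42 to -0.30). Over all measured genes 3.25% were lower. Dusp1 stayed past 2-fold in 8 of 20 alternatives and Cyr61 in 18 of 20. Both changed sign in the first set alone, to 0.16 and 1.75. Several lower genes belong to the secretory pathway, a grouping made after their values were seen. Sec13 and Copg1, coat proteins of vesicle transport, had 9 and 14, and 12 and 13 counts, with log2 ratios of -2.18 (-3.57 to -0.87) and -1.65 (-2.92 to -0.40). Golph3, a Golgi protein, stood at -1.46 (-0.77 in the first set alone), Srp14, a subunit of the signal recognition particle, at -1.45 (0.16 in the first set alone), and Pdia4, a protein disulfide isomerase, at -1.54 (-0.47 in the third set alone). Sec62, a component of protein translocation into the endoplasmic reticulum, was called in the other direction, with 65 and 10 counts (1.16, 0.19 to 2.29), and is named after its values were seen. The fixed list of endoplasmic reticulum folding genes had 1 of 18 lower, 0 higher and a median of 0.17. Abhd16a, Ppm1b, Rai14, Igfbp6, Smarca2, Msn, Krtap17-1, Ywhab and the glycolytic enzyme Tpi1 were lower, with log2 ratios between -2.12 and -1.09, and Rai14 alone of these 9 kept 2-fold in every alternative.

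Several metabolic and housekeeping lists held no called gene, while 1 of 9 measured genes of hypoxia and glycolysis, Tpi1, was lower (0.35 in the second set alone). All 25 measured genes of xenobiotic metabolism (median 0.12), all 49 cytosolic ribosomal protein genes (-0.20) and all 27 genes of oxidative phosphorylation (-0.18) passed in neither direction, and the sign of the last 2 medians turns with TMM (0.11 and 0.13). The 16 measured antioxidant genes had a median of -0.33 (-0.02 with TMM), with Prdx6, a peroxiredoxin, at 2516 and 3700 CPM. Lung transcription factors (13 measured) and class I antigen presentation (6 measured) also held no called gene. Of the 24 measured club cell genes 3 were higher, Scgb3a2, Chad and Lypd2, against 1.41% of all measured genes. The median of that list was 0.16.

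**Figure D4:**
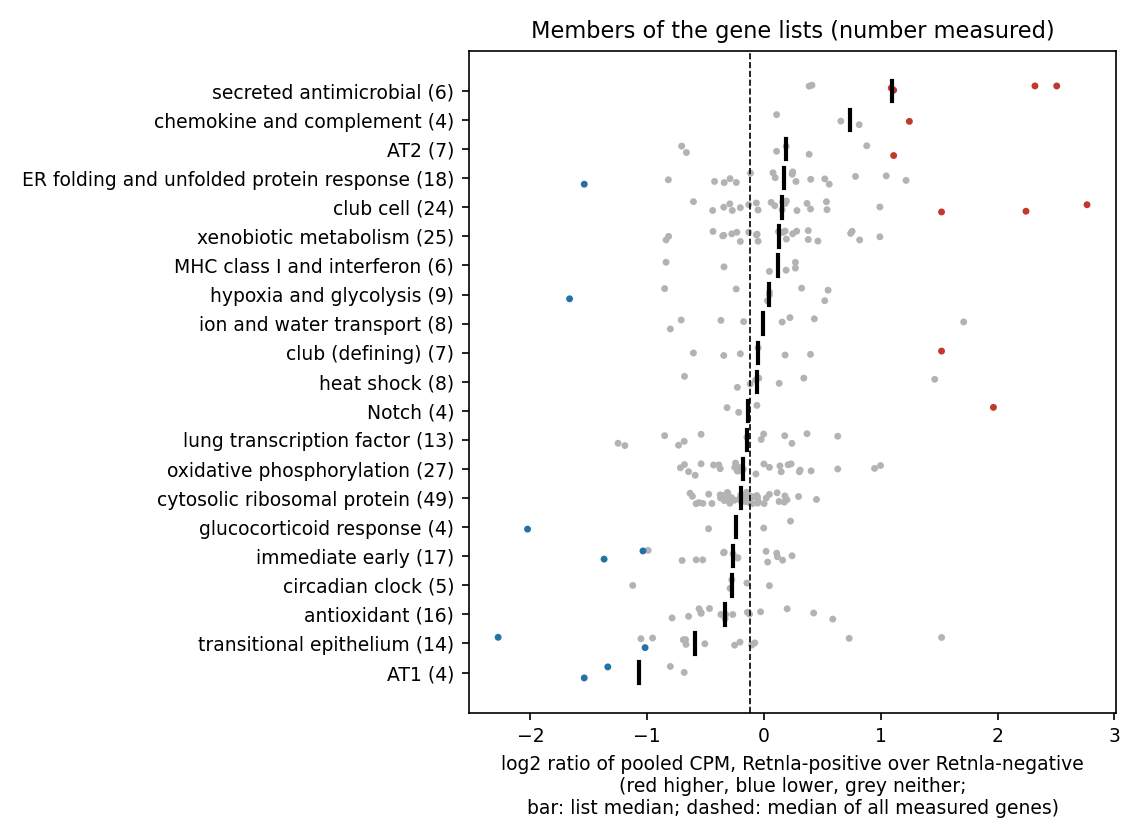
Log2 ratio of pooled CPM, Retnla-positive over Retnla-negative (horizontal axis), of each measured gene of the lists with at least 4 measured genes; red points are called higher, blue lower, grey neither, bars are list medians, and the dashed line is the median of all measured genes (-0.12). Secreted antimicrobial genes have the highest median (1.10) and alveolar type 1 markers the lowest (-1.07).

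Besides the alveolar, goblet and leukocyte markers described above, other cell types gave few counts. Basal, endothelial, mesenchymal, neuroendocrine, erythroid and tuft cell lists had no measured gene. Ciliated markers, none of them measured, summed to 161 CPM in positive and 66.7 CPM in negative wells, with counts in 6 and 5 wells and at most 3695 and 491 CPM in a single one; in the third set they summed to 934 and 81.1 CPM. Without wells holding a Foxj1 or Ccdc153 count or at least 3 Tppp3 counts, 23 genes were higher and 55 lower. Stxbp3-ps and Scn2b, which held more counts than any other gene in 1 control well, were higher in negative wells (70 and 66, 56 and 45 counts in positive and negative). The excess lay mostly in 2 wells that held 24 and 34 counts of Stxbp3-ps. Both genes pass the limits for a lower gene and are among the 53 called lower. Without wells holding at least 5 counts of either, 19 genes were higher and 55 lower. Of these, 14 and 36 were among the genes called with all wells.

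The same Retnla limits were applied to kept wells outside the club gate, those with Scgb1a1 at least 10%, Scgb3a1 at least 1% and Sftpc under 1%. They gave 25 positive and 25 negative wells that the rule had not used. Of 1682 genes measured there 37 were higher (2.2%) and 68 lower (4.04%), with a median log2 ratio of -0.09. The 2 comparisons shared 2 higher genes, Sftpa1 and Ccdc36 (8.70% of the club calls and 5.41% of the others), and 2, Ltf and Hcfc1r1, were called in opposite directions. The lower genes shared Krt7, Dusp1, Cyr61 and Clic4 (7.55% and 5.88%), and 1, Lrrc17, was called in the opposite direction. Of the 23 higher and 53 lower club calls, 19 and 37 were measured there, and the rest could not be shared. Of the 15 ranked higher genes 12 were measured there and 5 of those 12 were above 1 there too. Of the 15 ranked lower genes 8 were measured there, 4 of those 8 were below 1 there too, and 0 were called lower.

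Sftpa1 was at 7046 CPM in those positive and 3039 CPM in those negative wells (log2 ratio 1.21, 1.06 to 1.37), close to its ratio of 1.11 in club wells. Scgb3a2 was at 45854 and 43290 CPM (0.08), Lypd2 at 1685 and 2308 CPM (-0.45), and Chad at 960 and 1127 CPM (-0.23), and none of these 3 was called. Ltf was lower, at 703 and 2068 CPM (-1.56, -1.86 to -1.26). Chil1, short of the limit in club wells, was higher there with 174 and 29 counts (2.48, 1.91 to 3.10). Whether these differences between the 2 groups of wells exceed the spread between animals was not tested.

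**Figure D5:**
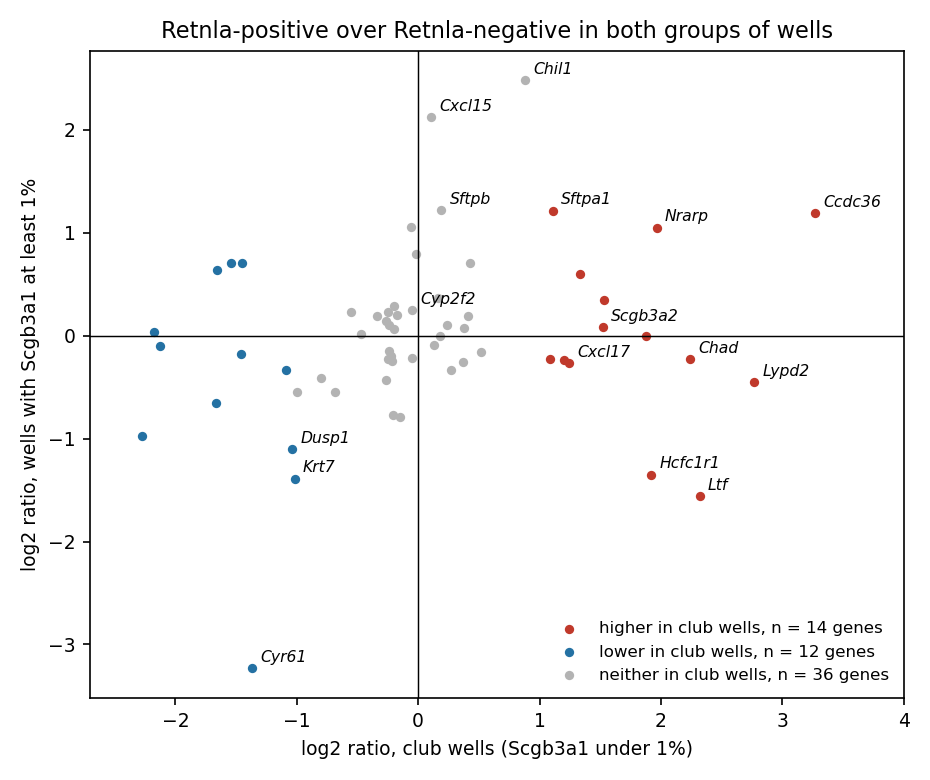
Log2 ratio of pooled CPM, Retnla-positive over Retnla-negative, in club wells (horizontal axis) and in wells with Scgb3a1 at least 1% (vertical axis), for named genes measured in both; colours give the call in club wells. Sftpa1 lies high on both axes (1.11 and 1.21), while Lypd2, Scgb3a2 and Chad lie near 0 or below on the vertical axis.

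Within the 43 positive wells, Spearman's rho between the CPM of Retnla and that of a gene was computed for 45 genes. It ran from -0.46 for Hopx, the alveolar type 1 marker, which had a count in 21 of these wells, to 0.29 for Scgb3a2. It was 0.17 for Chad, 0.23 for Cyp2f2, 0.00 for Sftpa1, -0.02 for Chil1 and -0.07 for Lypd2. These are descriptions over cells of 1 sample that share a denominator.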

How the data were processed

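The labels' protocols describe single cells sorted into wells, spike-in RNA added to each, poly(A)-primed cDNA with a molecular barcode, template switching and PCR. The deposited table holds the authors' raw, whole-number counts for 24781 gene symbols in each well. STAR and the build mm10 are named per the submitters' processing notes. Not given in the sources used here are the counting tool, the annotation and whether barcodes were collapsed; if not, the intervals are too narrow. The table used here held no spike-in or mitochondrial row, no 2 wells held identical counts, and no column was without a sample. Of the symbols, 24241 matched GENCODE M21. Strand use in counting is not stated.

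Counts were summed per side and scaled to 1000000 (CPM). Ratios had exact conditional binomial intervals, CPM exact Poisson intervals and shares exact Clopper-Pearson intervals, all at 95%, with 0 counts read as 3. The limit of 2340 counts is 10 times the total of the higher control. For shares at equal depth wells were thinned to 4016 counts, the 10th percentile, which kept 40 positive and 15 negative wells. The named genes were up to 15 higher and 15 lower that stayed past 2-fold without their top well, ranked by the bound nearest to 1, without predicted genes and ribosomal RNA; per list, up to 4 called genes and the 2 with most counts; the RELM family; and the genes of the rule. The sides, lists and rules were chosen with earlier results of these data known. The wells outside the club gate and the wells with control-well genes were added after seeing the data. No doublet caller was run. The scripts were tested on simulated data. Python 3.11.15, numpy 2.4.6, scipy 1.17.1, pandas 2.3.3, matplotlib 3.10.9, R 4.3.3 and edgeR 4.0.16 (for TMM factors only) were used.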

Additional observations from a re-analysis of the deposited data

Results flagged for a closer look

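Retnla counts were also present in sorted wells that the comparison of club wells did not use, above the 0 counts of the 2 control wells. In the 72 kept wells with Scgb3a1 at least 1% the pooled level was 1024 CPM (938 to 1117), with at least 5 counts in 25 wells, 0 in 25 and a highest count of 72. In the 63 kept wells with Sftpc at least 1% it was 507 CPM (421 to 605), with at least 5 counts in 3 wells and 0 in 59; 1 well alone held 98 of the 122 counts. In the 59 wells removed for low totals it was 82.2 CPM (26.7 to 192), from 5 counts in 1 well. The controls held so few counts in all that their 0 allows up to 10909 CPM, so the comparison with them is weak.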

How the results depend on the processing

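No paired analysis was possible because the result comes from no test, and the control wells and the cells share only numbers that name them. The count of higher genes (23) became 66 with TMM factors, 9 with at least 50 counts, 12 at 3-fold, 9 in wells with totals above the median (28 and 4 wells), 15 and 13 in the first and second set alone, and 13 without the top well of each gene. The count of lower genes (53) became 21 with TMM factors, 176 with no count minimum, 13 with at least 50 counts, 83 at 1.5-fold, 10 at 3-fold, 30 in wells with totals above the median, 35 at equal depth, 11 in the first set alone, 33 in the second and 11 in the third, and 24 without the second. The other alternatives left both counts within 1.5 times. A count that stayed within 1.5 times did not always hold the same genes. The calls shared with those reported were 11 of 21 higher and 21 of 45 lower without the first set, and 8 of 16 higher without the second. They were 3 of 21 higher in the third alone, 11 of 20 higher at equal depth, and 20 of 46 lower without the top well of each gene.

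Of the log2 ratios of named genes, 1353 stayed within their interval, 114 left it, and 8 of called genes changed sign: Cyr61 in the first set alone (1.75) and without the second (0.36), Dusp1 in wells with totals above the median (0.026) and in the first set alone (0.16), Krt7 in the third set alone (0.16), Nrarp without the second (-0.26), Srp14 in the first set alone (0.16) and Tpi1 in the second alone (0.35). The cause was not tested. Of the list medians, 460 stayed within 0.5 of the value reported and 17 did not. A ratio got no value where both sides held at most 3 counts or where a ratio against the floor for 0 counts fell across 1. The 18 negative wells held 90003 counts in all, which limits the precision for genes of few counts.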

Other observations

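In the wells with Scgb3a1 at least 1%, some genes that were not called in club wells were higher with Retnla. Cxcl15, lungkine, had 103 and 22 counts in positive and negative wells (575 and 132 CPM, log2 ratio 2.12, 1.45 to 2.86), against 0.11 in club wells. Sftpb, surfactant protein B, had 288 and 115 counts (1607 and 689 CPM, 1.22, 0.90 to 1.55), against 0.19. Hp, haptoglobin, had 736 and 311 counts (1.14, 0.95 to 1.34), against 0.40. In the other direction Bpifa1, an antimicrobial product of larger airways, had 683 counts in 25 positive and 8071 in 25 negative wells (-3.67, -3.78 to -3.55), while in club wells it had 6 and 2 counts. The differences between the 2 groups of wells were not tested.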
